A study of Mus musculus with 8 samples.

Results

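Growth factors that leukocytes release into a wound were followed in 8 single-cell libraries of CD45+ cells. The set listed 10 genes by name, under a rule that uses no measured value. It held the vascular endothelial growth factors Vegfa and Vegfb, the platelet-derived growth factors Pdgfa and Pdgfb, the epidermal growth factor receptor ligands Hbegf, Areg and Ereg, the cytokine Osm, and the TGF-beta family members Tgfb1 and Gdf15. Of these, 9 were analysed among the 21742 genes named in the tables once mitochondrial genes were set aside, and Areg was not analysed here. All 9 had UMIs in each of the 8 libraries. A UMI is a molecular tag that counts 1 captured transcript once, and levels below are in CPM, the UMIs of a gene per 1000000 UMIs of the same cells, mitochondrial genes left out.

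These factors divide the work of repair. VEGF proteins act on endothelial cells to form vessels, PDGF proteins draw in fibroblasts and pericytes, and HB-EGF and epiregulin act on keratinocytes through the epidermal growth factor receptor. Oncostatin M signals through gp130, TGF-beta 1 drives matrix formation and restrains inflammation, and GDF15 is a stress-induced hormone whose known receptor, Gfral, is in the hindbrain. Macrophages are a known source of several of them in skin wounds.

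The mice were male C57BL/6J with full-thickness wounds of the back skin. Diabetes had been induced with streptozotocin (STZ) at 120 mg/kg in 4-week-old mice after fasting, and control mice did not have diabetes. STZ destroys pancreatic beta cells, so this is a model of insulin deficiency. Wound cells were sorted for CD45, the leukocyte marker, on days 1, 3, 5 and 7, and 5 mice were pooled for a library, which left 1 library for each group and day. The methods of the study name the BD Rhapsody system, while the series' own design text gives 10X Genomics.

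Cells were barcodes that showed more than 200 genes and a mitochondrial share below 20%, and 35158 of 38959 barcodes passed. Barcodes are named by serial numbers, so barcodes shared between libraries could not be counted, but 0 cell profiles were identical in 2 libraries. The tables held 19236522 to 33842509 UMIs per library, with a median of 2575 to 8234 UMIs per cell kept. Control day 5 stood apart, since 27.1% of its barcodes had 20% or more mitochondrial UMIs and its cells were the deepest. Ptprc, the gene of CD45, had a UMI in 70.8% to 86.1% of the cells of a library. Col1a1, a collagen gene of fibroblasts, had a UMI in 1.62% to 69.2% of the cells, highest on control day 7, although only 50 cells of all libraries grouped as fibroblast-like. How much RNA free in the suspension was counted in intact cells was not tested.

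Cells were clustered without the growth factor genes, and clusters took a class from marker genes, given as a likeness only. The classes held 13792 neutrophil-like, 6816 macrophage-like, 4122 monocyte-like, 3002 lymphoid-like, 2863 dendritic-like and 384 osteoclast-like cells. Smaller groups were 50 fibroblast-like and 149 mast cell-like cells, and a shallow cluster of 3980 cells led by Gm26917 and Malat1 was left unnamed. The lymphoid-like class pooled clusters named by T cell, natural killer and innate lymphoid markers. The cluster named by innate lymphoid markers, of 320 cells, had Klrg1 and Il1rl1 of that list among its 10 leading genes. The T cell marker Icos and Ctla4, Ikzf2 and Foxp3 were also among them, so that name is uncertain. Clusters of 2785 cells (led by Il23a and Csf1), 2015 cells (Il23a and Il1a) and 1055 cells (Slfn4 and Rsad2) had none of the neutrophil markers among their 10 leading genes, and a monocyte-like cluster of 767 cells led by Ifit2 and Rsad2 had none of the monocyte markers there. Class levels are described for libraries with at least 20 cells of the class. Differences between classes are given as values without a test, because the cells that define the classes also supply the levels.

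Gdf15, highest in macrophage-like cells, rose over the days in each of the 4 classes tested. In macrophage-like cells its level on days 1, 3, 5 and 7 was 151, 614, 905 and 964 CPM in the control group and 184, 338, 487 and 742 CPM in the diabetic group. In the class as a whole both groups climbed from day to day, and the diabetic libraries were lower on days 3, 5 and 7. The clusters behind the class changed over the days. Control day 5 held 1052 cells of the cluster led by Pf4 and Ms4a7 and 101 of the cluster led by Gdf15 and Igf1, and control day 7 held 49 and 2024. Within the Pf4 cluster Gdf15 was at 138, 617, 920 and 437 CPM in the control group, so it was lower on day 7 than on day 5, and at 96.8, 309, 424 and 555 CPM in the diabetic group. The macrophage-like level exceeded the monocyte-like and the neutrophil-like level in 8 of 8 libraries. The clusters led by Gdf15 and Igf1 and by Ccl8 and Retnla had at least 20 cells in 6 libraries each, those of days 3, 5 and 7. In these libraries Gdf15 was at 425 to 980 CPM in the first and at 419 to 1107 CPM in the second. In the Ccl8 cluster the diabetic library was higher on days 3 and 7, at 512 and 1107 CPM against 419 and 982. It was lower there on day 5. In the Gdf15 and Igf1 cluster it was lower on days 3 and 7, at 425 and 702 CPM against 752 and 980. It was higher there on day 5. No order of the 3 clusters held in all of these libraries, since the Pf4 cluster was lowest in the 3 diabetic libraries and on control day 7, but highest on control day 5, with 920 against 863 and 816 CPM, and above the Ccl8 cluster on control day 3, with 617 against 419. The gene lies on chr8:70629393-70632456 of GRCm38, on the minus strand.

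**Figure D1:**
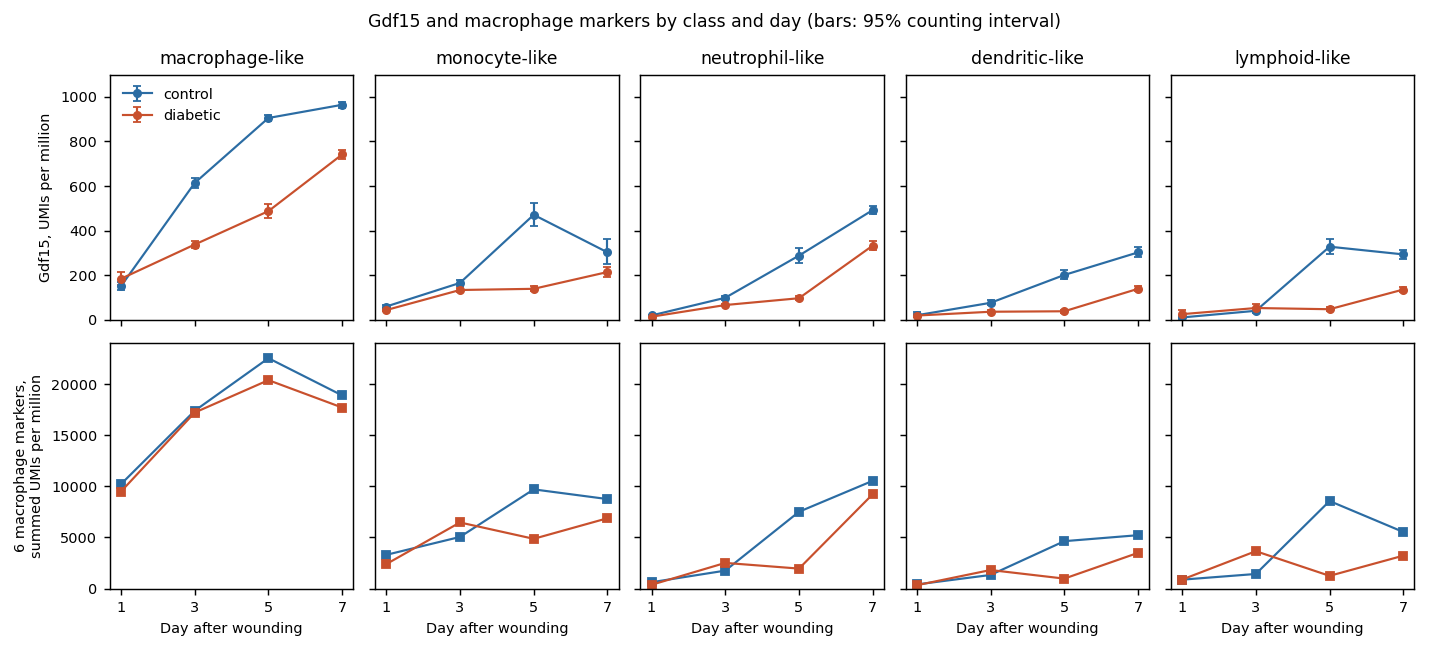
The upper panels plot Gdf15 in CPM against the day after wounding for 5 classes, with exact 95% Poisson intervals as bars, and the lower panels plot the summed level of 6 macrophage markers in the same cells. Blue marks control and orange diabetic libraries. Gdf15 reached 964 CPM in macrophage-like cells of control day 7, and in neutrophil-like cells both Gdf15 and the markers were lowest on day 1 and highest on day 7 in each group.

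The day trend was tested with the quasi-likelihood test of edgeR on UMIs summed per library and class, as a straight line over days with the group as a covariate, and a gene was called at a Benjamini-Hochberg adjusted p under 0.05 over all genes tested. In macrophage-like cells Gdf15 rose by 0.36 ± 0.06 (SE, n = 8 libraries) on the log2 scale per day (edgeR, adjusted p = 0.0156). It was the only one of 9 members called there, where 1.88% of 10339 genes were called. In monocyte-like cells it rose by 0.39 ± 0.08 per day (edgeR, adjusted p = 0.0499), again the only one of 9 members, with 0.677% of all genes called. The make-up of this class changed too. On diabetic day 1 its clusters led by Vcan, Ppbp and Ifit2 held 642, 344 and 308 cells. On diabetic day 7 they held 23, 112 and 45. Over diabetic days 1, 3, 5 and 7 Gdf15 was at 31.0, 174, 162 and 73.4 CPM in the Vcan cluster. In the Ppbp cluster it was at 52.7, 79.3, 86.0 and 185 CPM. The macrophage-like call was lost in 9 of 18 alternative settings. It was lost without diabetic day 1 or without diabetic day 7 (edgeR, adjusted p = 0.0800 and 0.0608), and the slope was 0.18 at cluster resolution 1.6 (edgeR, adjusted p = 0.185) and 0.24 at resolution 0.4, where it was not called either. At resolution 0.4 a cluster of 3929 cells, 57.7% of them from control day 7 and 21.4% from diabetic day 7, was classed as fibroblast-like, so the macrophage-like class of that setting held other cells. The monocyte-like call was lost in 12 of 18, among them without diabetic day 1, 5 or 7 and without control day 1 or 7 (edgeR, adjusted p = 0.0736 to 0.373). In dendritic-like cells Gdf15 rose by 0.52 ± 0.06 per day (edgeR, adjusted p = 0.00280), 1 of 8 members tested, with 0.293% of all genes called. This call was lost in 2 of 18 alternatives, without diabetic day 7 and with days 5 and 7 set against days 1 and 3. The summed level of 6 macrophage markers in dendritic-like cells went from 401 to 5220 CPM between days 1 and 7 in the control group and from 323 to 3491 CPM in the diabetic group, and in monocyte-like cells it ranged from 2386 to 9703 CPM, lowest on day 1 in both groups. Over all cells it rose by 0.48 ± 0.08 per day (edgeR, adjusted p = 0.0248), while 10.3% of 12905 genes were called. That call was lost without diabetic day 1, diabetic day 7 or control day 1 (edgeR, adjusted p = 0.103, 0.134 and 0.144). The cell mix moved over the same days, as macrophage-like cells gave 9.03% of all UMIs on control day 1 and 59.1% on control day 7 (4.91% and 33.1% in the diabetic group), and neutrophil-like cells gave 40.2% and 15.2% (36.7% and 15.1%).

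Neutrophil-like cells gave the most calls. Gdf15 rose by 0.58 ± 0.05 per day on the log2 scale (edgeR, adjusted p = 7.30e-05, n = 8 libraries), from 19.7 to 492 CPM between days 1 and 7 in the control group and from 14.01 to 333 in the diabetic group. Pdgfa, one of the PDGF chains, was at 1.45, 17.5, 50.1 and 75.0 CPM on days 1, 3, 5 and 7 in the control group and at 0.429, 14.8, 10.8 and 66.1 CPM in the diabetic group. Vegfb was at 1.06, 3.79, 9.83 and 24.7 CPM in the control group and at 0.429, 4.90, 4.41 and 19.8 CPM in the diabetic group. Day 1 was the lowest and day 7 the highest in each of these series. Compared day by day, the diabetic library was lower on 4 of 4 days for Gdf15 and Pdgfa (ratios of 0.336 to 0.712 and 0.215 to 0.881) and on 3 of 4 for Vegfb. Ereg went the other way, higher in the diabetic library on 4 of 4 days, with 26.0, 14.4, 4.41 and 43.9 CPM on days 1, 3, 5 and 7 beside 19.6, 5.05, 1.97 and 13.96 CPM in the control group, of which control day 5 rests on 2 UMIs. Pdgfa, Pdgfb, Vegfb and Hbegf rose, by 0.67, 0.63, 0.57 and 0.35 per day with SE of 0.11, 0.11, 0.08 and 0.05 (edgeR, adjusted p = 0.00113, 0.00108, 5.15e-04 and 6.25e-04). Osm fell by 0.18 ± 0.07 per day (edgeR, adjusted p = 0.0486), a call that was lost in 10 of 18 alternatives. Thus 6 of 9 members were called, in a class where 43.9% of 9611 genes were. The clusters behind this class also changed. Those led by Ngp and Retnlg and by Ighg2b and Igkc each had at least 20 cells in 5 libraries. Their medians were 29.7 and 374 CPM for Gdf15 and 1.25 and 41.3 CPM for Pdgfa. With the growth factors among the clustering genes, 44.1% of the Ngp cluster came from diabetic day 1 and 0.101% from diabetic day 7. For the control group these shares were 31.8% and 0.0507%. The part of this change in the trends was not tested. Counts behind the low members were small on day 1, with 3 Pdgfa, 4 Pdgfb and 3 Vegfb UMIs in 2450 neutrophil-like cells of the diabetic group.

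Macrophage transcripts moved with these rises. The summed level of 6 macrophage markers (C1qa, C1qb, C1qc, Apoe, Pf4 and Mrc1) in neutrophil-like cells ranged from 616 to 10542 CPM in the control group and from 364 to 9233 in the diabetic group, lowest on day 1 and highest on day 7 in both. Relative to macrophage-like cells of the same library, the markers stood at 3.84% to 55.8% in neutrophil-like cells, and Gdf15 stood at 7.61% to 51.1%, above the markers in 5 of 8 libraries. For Pdgfa the range was 1.18% to 71.9%, above the markers in 4 of 8 libraries, and for Hbegf 8.28% to 51.1%, above them in 5 of 8. Pdgfb was above the markers in 7 of 7 libraries with enough macrophage-like UMIs, and Vegfb in 6 of 7. In lymphoid-like cells the median share was 14.8% for Gdf15 and 13.7% for the markers, and Gdf15 was above the markers in 4 of 8 libraries. All 6 markers were detected in neutrophil-like cells of every library. The summed markers of neutrophil-like cells were lower in the diabetic library on days 1, 5 and 7. They were then at 364, 1951 and 9233 CPM against 616, 7511 and 10542 in the control library. On day 3 they were higher, at 2508 against 1753 CPM. The part of carried-over macrophage RNA in the neutrophil-like, dendritic-like and monocyte-like trends was not tested. Nor was its part in the differences between the groups in neutrophil-like cells.

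**Figure D2:**
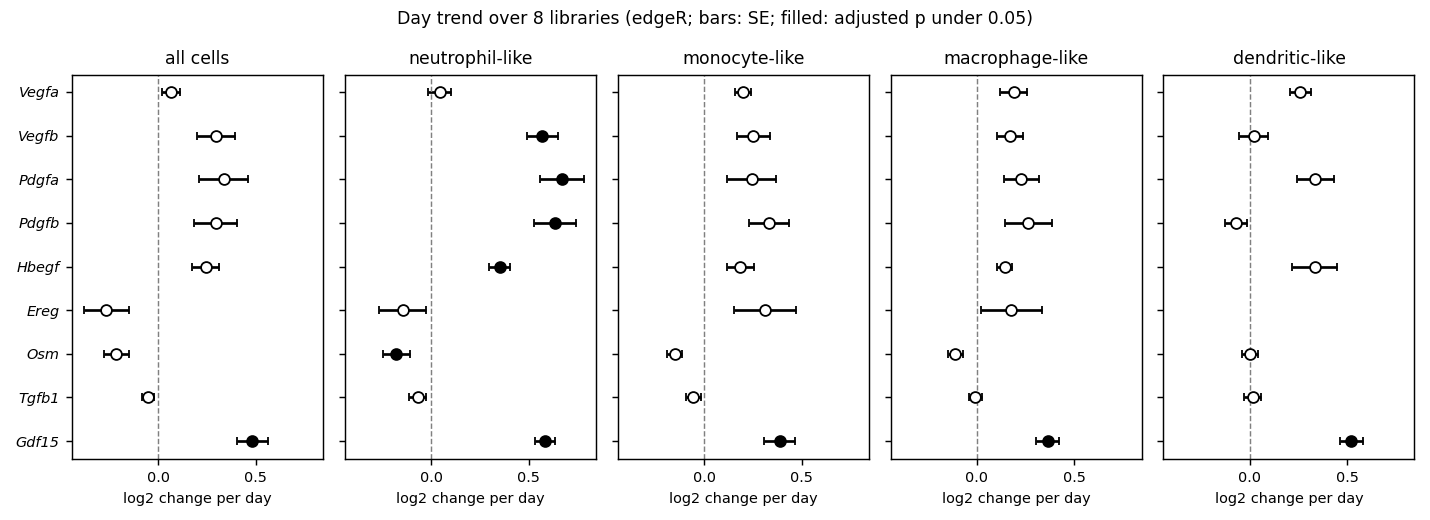
Points give the change per day on the log2 scale from edgeR for each member, with standard errors over 8 libraries as bars, in all cells and in 4 classes. Filled points passed an adjusted p of 0.05. Gdf15 is filled in all 5 panels, at 0.36 to 0.58 per day, and Ereg has no point in dendritic-like cells because it did not pass the filter on low counts.

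Promoter sequence is given for Gdf15, Pdgfa and Vegfb, 3 of the 5 members that rose in neutrophil-like cells, where 2214 of 9611 genes rose. Pdgfb and Hbegf rose too but were not matched to a promoter. Whether any of these genes share regulation was not tested. Each sequence covers the 250 bases before the RefSeq transcript start, from RefSeq with the build GRCm38.p6, read along the gene's strand. The RefSeq start of Pdgfa lies 2426 bases downstream of the GENCODE start, so its window is inside the span that GENCODE annotates for the gene. Of the 9 members, 5 were matched and used (Vegfa, Vegfb, Pdgfa, Tgfb1 and Gdf15). Capitals mark GC boxes (GGGCGG), searched on both strands.
Gdf15, chr8:70632457-70632706, minus strand: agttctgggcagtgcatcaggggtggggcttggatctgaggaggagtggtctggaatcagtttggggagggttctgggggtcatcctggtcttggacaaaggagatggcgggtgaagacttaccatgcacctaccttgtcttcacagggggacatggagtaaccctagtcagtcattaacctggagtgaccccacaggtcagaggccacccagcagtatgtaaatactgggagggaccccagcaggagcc
Pdgfa, chr5:138994945-138995194, minus strand: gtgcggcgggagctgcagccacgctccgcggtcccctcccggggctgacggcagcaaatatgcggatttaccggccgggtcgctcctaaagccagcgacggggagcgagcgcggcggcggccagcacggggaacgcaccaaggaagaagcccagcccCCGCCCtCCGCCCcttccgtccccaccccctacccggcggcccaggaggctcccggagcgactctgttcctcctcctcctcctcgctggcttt
Vegfb, chr19:6987652-6987901, minus strand: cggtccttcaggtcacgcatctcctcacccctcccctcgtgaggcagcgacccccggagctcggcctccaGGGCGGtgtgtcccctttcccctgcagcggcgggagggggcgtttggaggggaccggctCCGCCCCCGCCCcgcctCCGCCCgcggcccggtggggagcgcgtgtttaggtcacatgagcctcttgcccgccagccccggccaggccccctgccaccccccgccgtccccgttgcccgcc
The window of Vegfb held 4 GC boxes and that of Pdgfa held 2, while that of Gdf15 held 0, and 32.7% of 32851 promoter windows held at least 1. Other motifs were searched for in the same way. The AP-1 letters TGANTCA are in 6.75% of all windows and in 0 of these 3. The hypoxia response core ACGTG is in 16.6% of all windows and in 0 of the 3. The C/EBP-ATF composite TGATGNAA is in 3.45% and the ATF/CREB core TGACGT, which can overlap the hypoxia core, in 6.47%, again with 0 of the 3. The CCAAT box is in 33.8% of all windows and the TATA box, TATAAA, in 12.4%, and neither is in these 3. The absence of a match says only that the letters are not in the window.

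Over all cells, none of the group differences of the 9 members passed the test. Pdgfb was lower on all 4 days, with 9.30, 49.9, 71.6 and 53.1 CPM in the control group on days 1, 3, 5 and 7 and 5.67, 27.1, 34.7 and 30.8 in the diabetic group. The 4 diabetic-to-control ratios lay between 0.485 and 0.610. Gdf15 was at 48.6, 246, 631 and 725 CPM in the control group and at 37.8, 150.1, 122 and 378 in the diabetic group, again lower on 4 of 4 days. Pdgfa and Hbegf were also lower on 4 of 4 days, and Vegfa and Vegfb on 3 of 4. Osm was lower on 3 of 4 days as well, but its fitted difference over the 4 days was 0.16 ± 0.31 on the log2 scale, above 0 (edgeR, adjusted p = 0.830).

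The group effect was tested with the day as a block, so that the 4 days served as replicates. Fitted differences (diabetic minus control, log2) over all cells were -0.80 ± 0.10 (SE) for Pdgfb, -1.03 ± 0.30 for Gdf15 and -0.60 ± 0.17 for Pdgfa (edgeR, adjusted p = 0.440 for each, n = 8 libraries). With edgeR 0 of 9 members and 0% of 12905 genes were called, although 3 members and 1458 genes had an unadjusted p under 0.05, and DESeq2 called 1 member, Pdgfb, among 89 genes. The median over the 9 members was -0.60 over all cells, where the cell mix also differed, beside 0.02 over all genes. Within neutrophil-like, monocyte-like and macrophage-like cells it was -0.26, -0.25 and -0.16, beside -0.02, -0.004 and -0.02. In dendritic-like cells the median over 8 members was -0.37, beside -0.006. The part of the cell mix in these medians was not tested. The edgeR group test called 0 of 9 members in neutrophil-like, monocyte-like and macrophage-like cells and 0 of 8 in dendritic-like cells, with 4, 2, 3 and 2 members at an unadjusted p under 0.05, beside 854 of 9611, 606 of 9449, 1226 of 10339 and 579 of 9209 genes. DESeq2 called 0, 0, 0 and 1 members among 35, 15, 117 and 15 genes, the last being Gdf15, lower in the diabetic libraries. In neutrophil-like cells the fitted difference of Ereg was 1.16 ± 0.30 (edgeR, adjusted p = 0.469), called with no filter on low counts (edgeR, adjusted p = 0.00688) and at -0.05 ± 0.46 at resolution 1.6, and in macrophage-like cells it was 0.93 ± 0.40 (edgeR, adjusted p = 0.393). The summed macrophage markers in dendritic-like cells were 401, 1329, 4634 and 5220 CPM in the control group and 323, 1811, 972 and 3491 CPM in the diabetic group, lower in the diabetic library on days 1, 5 and 7, and their part in this difference was not tested. All genes were called at a rate of 0% in both neutrophil-like and monocyte-like cells, 0.0193% in macrophage-like and 0.0109% in dendritic-like cells. Slopes over days did not pass a test of difference between the groups for any member (edgeR, 0 members called and 0 with an unadjusted p under 0.05 in each population), and DESeq2, run over all cells, called 0 members as well.

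**Figure D3:**
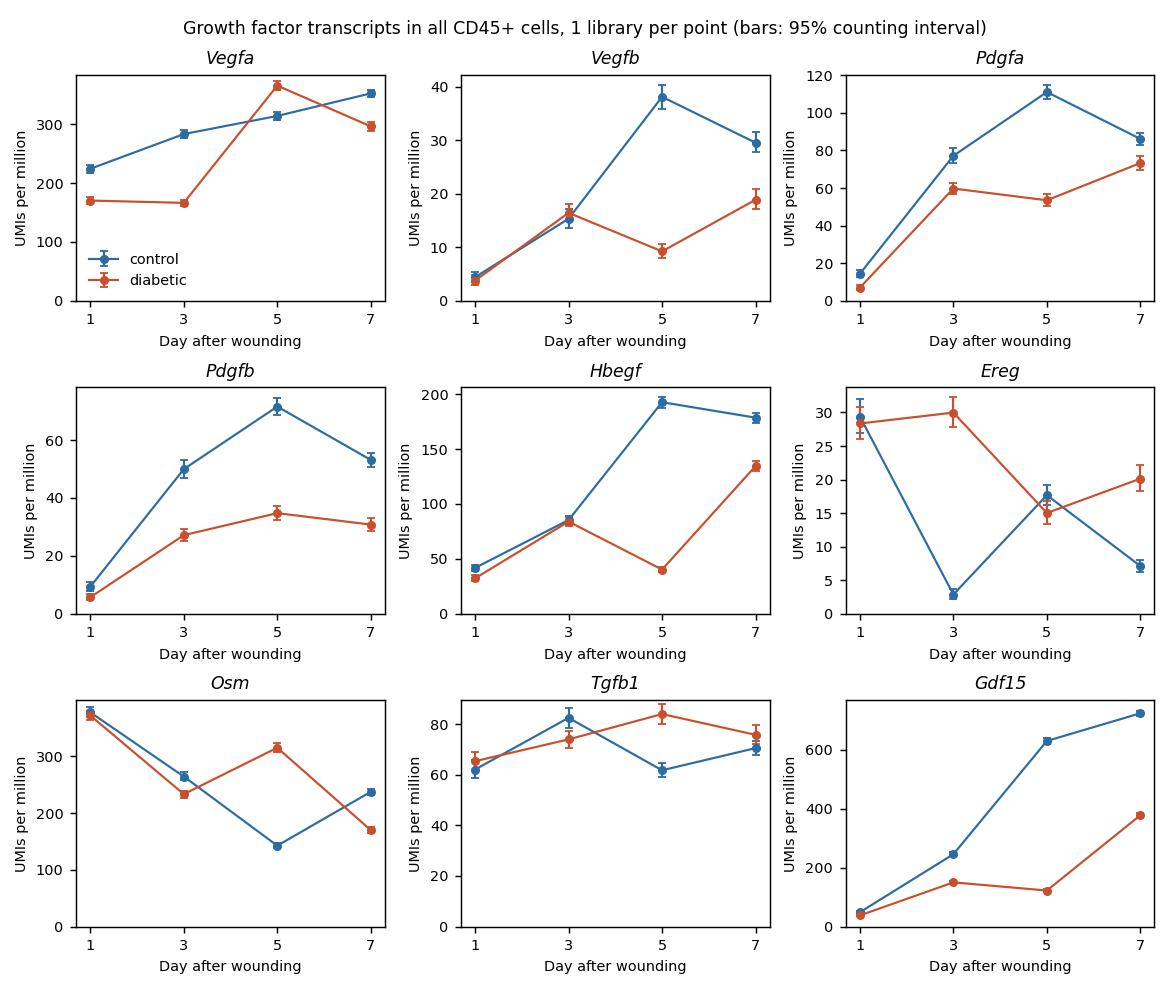
Each panel plots a member in CPM over all cells against the day after wounding, 1 library per point, with exact 95% Poisson intervals as bars. Control libraries are blue and diabetic libraries orange. Pdgfb and Gdf15 lie lower in the diabetic group on every day, and Ereg shows the drop of control day 3 to 2.86 CPM.

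By the count of members 2-fold or more apart, day 5 stood out. There, 6 of 9 members were 2-fold or more apart between the 2 libraries, 5 of them lower in the diabetic library, but so were 27.1% of 11782 genes. On days 1, 3 and 7, 1 member each was 2-fold or more apart, against 2.66%, 6.61% and 8.12% of genes. Control day 5 was also the library with 27.1% of barcodes at 20% or more mitochondrial UMIs, against 1.00% to 5.50% in the others, and with the deepest cells, at a median of 8234 UMIs, and the part of either in the differences of that day was not tested. Gdf15 on day 5 was at 0.194 times the control level (95% interval 0.186 to 0.202), Hbegf at 0.209 times and Vegfb at 0.242 times. Osm went the other way, at 2.21 times the control level (2.13 to 2.30). These intervals are exact and cover counting error only. Not every member was furthest apart on day 5, since Ereg was so on day 3. Pdgfa was nearly as far apart on day 1 as on day 5, with ratios of 0.487 and 0.482. Pdgfb had ratios of 0.485 to 0.610 over the 4 days, the lowest on day 5.

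The cell mix differed on that day. Macrophage-like cells gave 55.8% of all UMIs of control day 5 and 8.21% of those of diabetic day 5, and neutrophil-like cells gave 3.46% and 28.5%. Osteoclast-like cells gave 19.9% and 1.06%. Within macrophage-like cells of day 5 Gdf15 was at 0.539 times the control level (0.502 to 0.577), Hbegf at 0.519 times and Vegfb at 0.499 times, while Pdgfb was at 1.66 times (1.38 to 1.99). The lower level over all cells and the level within the class are therefore both given, and their parts in the difference were not separated. The clusters behind the class also differed in size, with 1052 and 299 cells of the Pf4 and Ccl8 clusters on control day 5 against 146 and 25 on diabetic day 5. Gdf15 in the Pf4 cluster was at 920 and 424 CPM in the control and diabetic library, whereas in the Gdf15 and Igf1 cluster it was at 863 and 943 and in the Ccl8 cluster at 816 and 733.

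**Figure D4:**
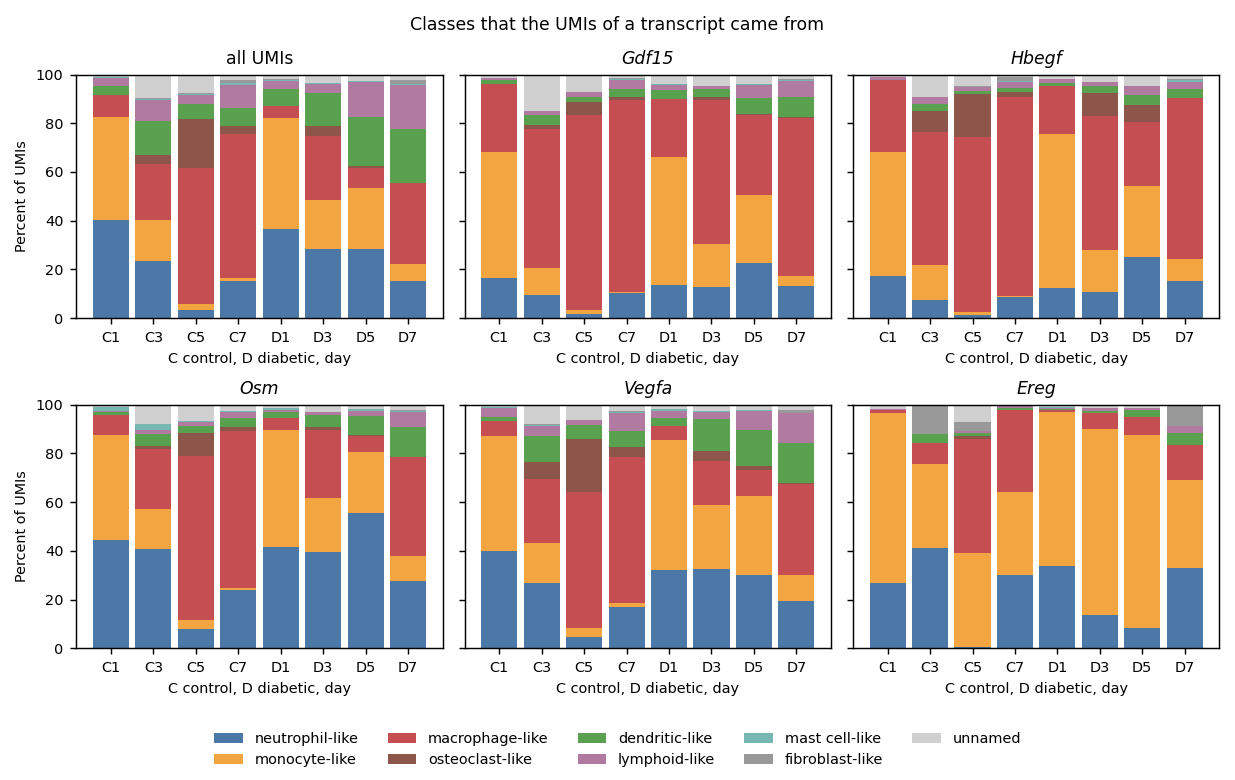
Bars give the percent of UMIs that each class contributed in each library, for all UMIs and for 5 members, with C and D for control and diabetic and the day as a number. Macrophage-like cells supplied 80.1% of Gdf15 UMIs on control day 5 and 32.7% on diabetic day 5, and monocyte-like cells supplied most Ereg UMIs on day 1 in both groups.

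Among the 5 large classes Hbegf, the heparin-binding ligand of the epidermal growth factor receptor, was also highest in macrophage-like cells. Its level there was 136, 203, 247 and 248 CPM on days 1, 3, 5 and 7 in the control group and 129, 175, 128 and 268 in the diabetic group. Libraries of the groups overlapped, and day 5 was the only day on which they were wide apart. Macrophage-like cells exceeded neutrophil-like, monocyte-like and dendritic-like cells in 8 of 8 libraries. The Ccl8 and Retnla cluster led with a median of 327 CPM, against 183 in the Pf4 cluster. Over 57 class-by-library sums, the genes most like Hbegf were Rab11fip5, Tmem37 and Lpl, with Pearson r of 0.89 each, and those most like Gdf15 were C1qc (0.94), Lipa and C1qa (0.92 each). These correlations of log2 levels describe sums that share libraries and carry no test.

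Ereg had its highest level in monocyte-like cells. It stood there at 48.5, 5.86, 276 and 216 CPM in the control group and at 39.6, 113, 48.1 and 102 in the diabetic group, and in 8 of 8 libraries this exceeded the neutrophil-like and macrophage-like levels. No order over the days was shared by the groups. Monocyte-like cells gave 63.5%, 76.2%, 79.2% and 36.3% of the Ereg UMIs of the diabetic libraries and 69.8%, 34.5%, 38.8% and 34.2% of those of the control libraries. More came from neutrophil-like cells on control day 3 (41.4%) and from macrophage-like cells on control day 5 (46.5%). On day 3 the diabetic library was 19.3 times the control library in monocyte-like cells (12.4 to 31.9, from 558 and 20 UMIs) and 10.5 times over all cells (8.02 to 13.95), and on day 5 it was 0.174 times the control library in monocyte-like cells (0.144 to 0.211). The direction thus turned between days 3 and 5, with 1 library on each side. Most Ereg UMIs of the class lay in the cluster led by Ppbp, Serpinb2 and Pdpn, where its level on day 3 was 248 CPM in 226 diabetic cells and 50.9 in 42 control cells. On day 5 it was 165 CPM in 146 diabetic cells and 617 CPM in 32 control cells of that cluster, while the cluster led by Vcan and Chil3, low in Ereg, held 351 and 22 cells. The next cluster by median, a neutrophil-like one led by Il23a and Il1a, had 31.4 CPM. The genes most like Ereg were Ptges, which makes prostaglandin E2 (r = 0.85), the collagenase Mmp13 (0.76) and Met, the receptor of hepatocyte growth factor (0.74). Ereg lies on chr5:91074622-91093646 of GRCm38, on the plus strand.

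Osm, which codes for oncostatin M, was highest in neutrophil-like cells among the 5 large classes. It ranged there from 335 to 462 CPM in the control group and from 313 to 615 in the diabetic group, so the groups overlapped. Neutrophil-like cells exceeded macrophage-like and monocyte-like cells in 8 of 8 libraries and lymphoid-like cells, with a median of 61.7, in 8 of 8. Mast cell-like cells gave higher values in 3 of 4 libraries with at least 20 of them, up to 1191 CPM from 101 UMIs in 25 cells. After each cell was thinned to 1000 UMIs, a median of 28.1% of neutrophil-like, 23.0% of monocyte-like and 20.1% of macrophage-like cells had an Osm UMI, against 5.31% of lymphoid-like cells; without thinning monocyte-like cells led with 65.2%. Over all cells Osm went from 378 to 237 CPM between days 1 and 7 in the control group and from 372 to 169.9 in the diabetic group, with the control library lowest on day 5 at 143 (edgeR, adjusted p = 0.0609 for the trend, not called). The genes most like Osm were the chemokine Ccl4 and the related receptor genes Lilr4b and Lilrb4, with r of 0.87 to 0.88. Its locus is chr11:4236420-4241026 of GRCm38, on the plus strand.

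Vegfa was spread over all classes. Median levels were 361 CPM in monocyte-like, 351 in neutrophil-like and 319 in macrophage-like cells. Over libraries these classes ranged from 200 to 504, 150 to 407 and 112 to 477 CPM, so their ranges overlapped. Medians were 223 and 187 in dendritic-like and lymphoid-like cells. Osteoclast-like cells had a median of 379 over 4 libraries. Monocyte-like cells were above neutrophil-like cells in 7 of 8 libraries and above macrophage-like cells in 6 of 8. The cluster with the highest median was again the Ppbp and Serpinb2 monocyte cluster, at 511 CPM. Vegfa was lower in the diabetic library on 4 of 4 days in neutrophil-like, monocyte-like and dendritic-like cells. The ratios there were 0.588 to 0.967, 0.782 to 0.954 and 0.714 to 0.897. It was lower on 3 of 4 days in lymphoid-like and on 2 of 4 in macrophage-like cells. In macrophage-like cells of day 3 the diabetic library was at 112 and the control library at 325 CPM, a ratio of 0.345 (0.316 to 0.378), and on day 5 the ratio was 1.52 (1.41 to 1.64). The clusters behind the class differed on day 5. Vegfa was at 543 and 355 CPM in the diabetic and control Pf4 cluster and at 187 and 183 in the Gdf15 and Igf1 cluster. In the Ccl8 cluster it was at 30.5 CPM in 25 diabetic cells, from 4 UMIs, and at 68.3 CPM in 299 control cells. The gene most like Vegfa was Hilpda, a hypoxia-induced lipid droplet gene, with r of 0.68. Vegfa lies on chr17:46016993-46032369 of GRCm38, on the minus strand.

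The PDGF genes and Vegfb were highest in osteoclast-like cells, which carry Ctsk, Acp5, Mmp9 and Atp6v0d2. Pdgfb reached 132 to 252 CPM in the 4 libraries with at least 20 such cells, above macrophage-like and dendritic-like cells in 4 of 4. Pdgfa reached 127 to 340 and Vegfb 51.2 to 63.4 CPM there, above macrophage-like cells in 4 of 4 libraries each. Only 1 of these libraries was diabetic, so the groups were not compared in this class beyond day 3, when Pdgfb was 153 in the diabetic and 252 in the control library. Among the larger classes Pdgfa and Vegfb were highest in macrophage-like cells, with medians of 103 and 25.8 CPM. Pdgfb had similar medians in dendritic-like (45.0) and macrophage-like cells (40.3), each above the other in 4 of 8 libraries. Pdgfa lies on chr5:138976014-138997370, Pdgfb on chr15:79995874-80014977 and Vegfb on chr19:6982473-6987651 of GRCm38, all on the minus strand.

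Tgfb1 was the steadiest member. Over all cells it ranged from 61.7 to 82.4 CPM in the control group and from 65.3 to 84.0 in the diabetic group. Lymphoid-like cells had the highest median of the large classes, 106 CPM, and exceeded neutrophil-like cells in 8 of 8 and macrophage-like cells in 7 of 8 libraries. Neutrophil-like cells were lowest of these classes, with a median of 50.9. Tgfb1 did not pass the test for group or day in any population, and its largest fitted trend, in neutrophil-like cells, was -0.07 ± 0.04 per day on the log2 scale (edgeR, adjusted p = 0.212). Its locus is chr7:25687002-25705077 of GRCm38, on the plus strand.

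**Figure D5:**
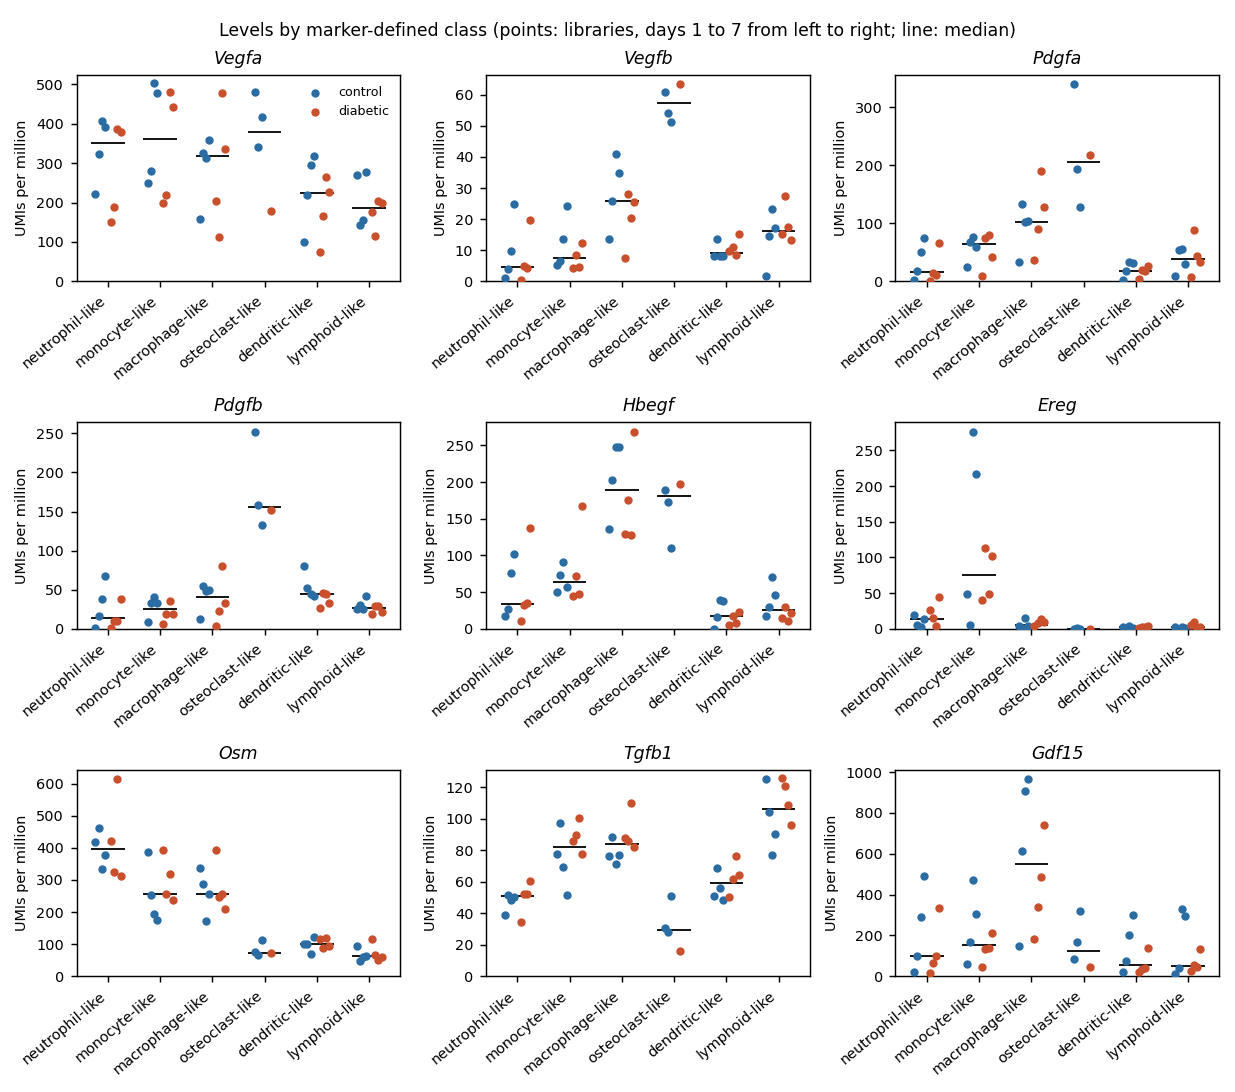
Points give CPM of a class in 1 library, blue for control and orange for diabetic, ordered by day within each group, and black lines give the median over libraries with at least 20 cells. Gdf15 stands out in macrophage-like cells and Hbegf in macrophage-like and osteoclast-like cells. Ereg stands out in monocyte-like cells, Osm in neutrophil-like cells and the PDGF genes in osteoclast-like cells.

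Other ligands, receptors, processing enzymes and regulators of these pathways, 66 genes on a list, gave few calls between the groups. Inhba, which codes for the activin A subunit and belongs to the TGF-beta family, was the only one of 41 tested in macrophage-like cells that was called, beside 2 of 10339 genes. Its level was 159, 65.8, 57.3 and 107 CPM in diabetic libraries on days 1, 3, 5 and 7, beside 55.3, 41.2, 22.2 and 31.7 CPM in control libraries, higher in the diabetic library on 4 of 4 days. The fitted difference was 1.34 ± 0.17 on the log2 scale (edgeR, adjusted p = 0.0342). The call was lost in 9 of 14 alternatives, namely without day 1, without day 7, without the day block, at both other cluster resolutions, with the members among the clustering genes and with each other choice of cells (edgeR, adjusted p = 0.142 to 0.884), and the difference lay between 1.05 and 1.57 over the 14. With edgeR, 53, 39, 40 and 36 genes tested in all cells, neutrophil-like, monocyte-like and dendritic-like cells gave 0 calls.

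Over the days 8 of 53 list genes rose and 9 fell in all cells, beside 431 that rose and 897 that fell of 12905 genes. Those that rose included Igf1, insulin-like growth factor 1, by 0.81 ± 0.11 per day on the log2 scale, Pdgfc by 0.67 ± 0.13 and Epas1, which codes for HIF-2 alpha, by 0.35 ± 0.07 (edgeR, adjusted p = 0.0248, 0.0291 and 0.0310). Inhba, Csf1, Il6 and Thbs1 fell, by 0.52, 0.42, 0.34 and 0.42 per day. The calls of Igf1, Pdgfc and Epas1 were lost in 4, 5 and 4 of 15 alternatives and those of Inhba, Csf1, Il6 and Thbs1 in 5, 5, 7 and 7, for all 7 genes without diabetic day 1, without diabetic day 7 or without control day 1. In macrophage-like cells 3 of 41 rose, namely Igf1 by 0.48, Pdgfc by 0.39 and Lrrc32, which tethers latent TGF-beta to the cell surface, by 0.49 per day, and 0 fell, beside 125 and 69 of 10339 genes. These calls were lost in 7, 6 and 14 of 18 alternatives, and the slope of Igf1 was 0.17 at resolution 1.6 and that of Lrrc32 0.30 at resolution 0.4. In monocyte-like cells Igf1 rose by 0.74, the oxygen sensor Egln3 by 0.31 and the integrin Itgav by 0.19 per day (3 of 40, with 0 that fell, beside 44 and 20 of 9449 genes), calls lost in 5, 7 and 7 of 18 alternatives. The macrophage markers in these cells went from 3296 to 8752 CPM between days 1 and 7 in the control group and from 2386 to 6878 CPM in the diabetic group. In neutrophil-like cells 13 of 39 rose and 10 fell, beside 2214 and 2010 of 9611 genes. Igf1 had the largest rise there, 1.19 per day, in cells where the macrophage markers moved alike, and Hif1a fell by 0.26 and Ddit3, a stress-induced transcription factor, by 0.31 per day. None of 36 passed in dendritic-like cells.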

How the data were processed

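The authors ran fastp for trimming, UMI-tools for cell barcodes and STAR for alignment. The submitters' processing notes name fastp 0.20.1 and mm9, whereas the methods name an Ensembl release of the mouse genome. The authors deposited 1 table of UMI counts for each library, not normalized. The growth factors, the gene lists and the tests were chosen with earlier results of these data known.

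Each cell was scaled to 10000 counts and put on a log scale in scanpy 1.11.5. Of the 2000 most variable genes, without the growth factors, 10 principal components gave a graph of 30 neighbours, clustered with leidenalg 0.10.2 at resolution 0.8. Classes went by the mean log2 fold of their markers (20 CPM added), the largest naming the cluster. That fold had to reach 0.25 with 3 markers detected in 25% of its cells. The detection share and the pooled lymphoid class were set after the clusters were seen. Scrublet called 0 to 38 cells per library, too few to be a working call, so doublets were in effect not removed.

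UMIs were summed per library and class (at least 20 cells) and tested across all genes with glmQLFit and glmQLFTest of edgeR 4.0.16 in R 4.3.3, with TMM and filterByExpr, and DESeq2 1.42.0 as an alternative. The tests were checked on simulated data. Depth is 19236522 to 33842509 UMIs per library. Because 5 mice were pooled, no p-value measures the spread between mice. For the group effect, p-values measure how the difference between the groups varied over the days. For the day trend and the difference of slopes, they measure the scatter of libraries around fitted straight lines. Poisson, conditional and binomial intervals are exact at 95%. Named are the members, list genes past the threshold and, for each member, the 3 genes with the highest correlation of log2 levels with 20 added, among genes with at least 500 UMIs. Coordinates are from GENCODE on GRCm38. Alternatives were other scaling, filters, cell limits, resolutions, thinning depths, tests and libraries left out.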

Additional observations from a re-analysis of the deposited data

How the results depend on the processing

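The number of members called depended on the test and the filter. For the group effect, where edgeR called 0, DESeq2 called 1 over all cells and 1 in dendritic-like cells, and without a filter on low counts 1 was called in each of neutrophil-like, monocyte-like, macrophage-like and dendritic-like cells. RLE scaling, no day block, at least 500 genes per cell, no mitochondrial limit and other clusterings left these counts at 0, as did leaving out each day in turn (0 to 0). For the day trend, DESeq2 called 6 over all cells, 4 in monocyte-like, 2 in macrophage-like and 3 in dendritic-like cells, against 1 each with edgeR. Without the filter 2 were called over all cells and 4 in each of monocyte-like, macrophage-like and dendritic-like cells. With days 5 and 7 set against days 1 and 3 the calls fell to 0 over all cells and in neutrophil-like, macrophage-like and dendritic-like cells. In monocyte-like and macrophage-like cells 0 were called at resolution 0.4, at resolution 1.6, without the mitochondrial limit, after removal of Scrublet doublets and with the growth factors among the clustering genes. RLE scaling left 0 in monocyte-like cells, and 500 genes per cell left 0 in macrophage-like cells. The cause of these changes was not tested. Leaving out 1 library at a time gave 0 to 4 members over all cells, 5 to 6 in neutrophil-like, 0 to 3 in monocyte-like, 0 to 2 in macrophage-like and 0 to 2 in dendritic-like cells.

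Over all genes the trend calls moved more, from 1328 over all cells to 1 without control day 1, 0 with days 5 and 7 against days 1 and 3 and 2780 with DESeq2, and from 4224 in neutrophil-like cells to 92 with days 5 and 7 against days 1 and 3. In the alternatives they lay between 5 and 381 in monocyte-like, 1 and 580 in macrophage-like and 0 and 350 in dendritic-like cells, against 64, 194 and 27. For the group effect they reached 89 over all cells, 134 in neutrophil-like, 88 in monocyte-like, 297 in macrophage-like and 119 in dendritic-like cells.

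The fitted Gdf15 slope was above 0 in each alternative run, at 0.18 to 0.61 on the log2 scale per day over the populations when days were a number, but its call was lost in 4 of 15 alternatives over all cells and in 1, 12, 9 and 2 of 18 in neutrophil-like, monocyte-like, macrophage-like and dendritic-like cells. The class with the highest median level was the same for 8 of 9 members at resolution 0.4, with Pdgfb as the exception and with 3929 cells, mostly of day 7, classed as fibroblast-like there, and for 9 of 9 at resolution 1.6 and with 500 genes per cell. The class with the highest share of cells stayed for 9 of 9 at 500 UMIs and 7 of 9 without thinning, where Osm and Tgfb1 moved to monocyte-like cells. The day paired the libraries as a block in the group effect, and without it 0 members were called as well. With 1 library per group and day, differences within a day have no replicate check, and Ereg, Vegfb and Pdgfa in neutrophil-like cells rest on few UMIs.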
